A study of Mus musculus with 20 samples.

Results

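The effect of losing Acsl1 in the heart was measured across both drug arms of a study in mice, by setting the 10 libraries of the Acsl1H-/- genotype (knockout) against the 10 of the Acsl1flox/flox genotype (control). All 20 libraries of the series entered, and the drug was kept as a factor, so that the reported change is the mean of the change under vehicle and the change under rapamycin. Each of the 4 groups held 5 libraries. The animals were male C57Bl/J6 mice, and controls were littermates that kept the floxed gene. Both genotypes received tamoxifen by intraperitoneal injection at 75 mg/kg on 4 days, from an age of 6 to 8 weeks, and hearts were taken 2 weeks after tamoxifen. Rapamycin, which inhibits the growth kinase mTOR, was given at 1 mg/kg each day for 2 weeks, and the other arm received vehicle alone. Which Cre line made the knockout is not given in the labels, and an effect of the Cre protein cannot be told apart from an effect of losing Acsl1. The design text states that the 5 replicates of a group are biological, without saying more about them.

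Acsl1 encodes the main long-chain acyl-CoA synthetase of the heart, which couples fatty acids to coenzyme A so that mitochondria can oxidise them. Fatty acids are the chief fuel of the adult heart, and a heart that cannot activate them relies more on glucose and other fuels. Fatty acids also act as ligands of PPAR nuclear receptors, and mTOR is activated in hearts that lack Acsl1.

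Values are the authors' normalized expression signal per gene, with every library brought to an upper quartile near 1000, and 13548 genes with a value of at least 10 in at least 5 libraries were tested on the log2(value + 1) scale. The steps between low values imply 11.5 to 21.1 M reads per library (median 15.2 M), with control libraries at 14.7 ± 2.98 M and knockout libraries at 16.0 ± 2.77 M (SD, n = 10 each, exact two-sided permutation p = 0.321). Ventricular markers were high throughout: Myl2, the ventricular myosin light chain, lay between 204680 and 681950. Atrial transcripts varied between libraries, with Myl7 from 3.98 to 10265 and Bmp10 listed at 0 in 11 libraries. The mean log2 level of 4 atrial markers was 3.94 ± 1.39 in control vehicle, 8.33 ± 3.97 in knockout vehicle, 5.96 ± 3.38 in control rapamycin and 6.91 ± 3.30 in knockout rapamycin libraries (SD, n = 5 each). Control vehicle libraries 1 and 3 scored 73.4 and 84.6 on the leading principal component (33.7% of variance), where the other libraries scored -41.7 to 19.3. The same pair was low in long transcripts relative to short ones, with scores of -0.58 and -0.68 against -0.22 to 0.31. Averaged over arms, knockout minus control was -27.6 on the component (exact two-sided permutation p = 0.0531) and 0.21 on the length score (same test, p = 0.076).

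Acsl1 itself fell in every knockout library. Its signal was 6373, 13112, 7659, 9844 and 13431 in control vehicle libraries and 12198, 10518, 12121, 16661 and 11698 in control rapamycin libraries. It was 996, 1402, 1467, 1682 and 740 in knockout vehicle libraries and 1052, 1950, 948, 631 and 1539 in knockout rapamycin libraries. No knockout library reached the lowest control library. The averaged log2 change was -3.23 (SE 0.20, adjusted p = 2.85e-09), or a 9.38-fold fall, with -3.00 under vehicle and -3.46 under rapamycin. An exact permutation of genotype labels within each arm gave p = 3.15e-05, the smallest value that its 63504 relabellings allow.

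Other members of the acyl-CoA synthetase family did not pass the test. Acsl3, Acsl4, Acsl5 and Acsl6, which activate long-chain fatty acids with other substrate preferences, had log2 changes of 0.37 (95% interval -0.10 to 0.84), 0.08 (-0.13 to 0.29), 0.00 (-0.20 to 0.20) and 0.12 (-0.12 to 0.35). Without control vehicle libraries 1 and 3 the changes of Acsl3, Acsl4, Acsl5 and Acsl6 were 0.15, -0.023, 0.06 and 0.18. Of 11 tested members of the family list, Acsl1 was the only gene called (0.443% of all genes were called).

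A pair of transcripts separated the genotypes completely in the opposite direction. Esr1, which encodes estrogen receptor alpha, had a lowest, median and highest value of 84.2, 156 and 239 in control libraries and of 39614, 45740 and 62622 in the knockouts, a log2 change of 8.25 (SE 0.15, adjusted p = 2.05e-19). A1cf, the factor that guides the APOBEC1 enzyme to its RNA targets, had a listed value of 0 in each of the 10 controls and lay between 5.74 and 40.9 in the knockout libraries, with a median of 22.5. Part of the estrogen receptor is built into many tamoxifen-inducible Cre proteins. Whether the reads of either gene came from the mouse gene or from a transgene was not tested.

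Across all genes, 60 passed an adjusted p of 0.05 for genotype averaged over the arms (limma, Benjamini-Hochberg), which is 0.443% of the genes tested. Of these, 45 were higher in knockout hearts (0.332%) and 15 were lower (0.111%). Unadjusted p-values under 0.05 were found for 2586 genes (19.1%), and the median change of all genes was 0.02. Most called changes were moderate in size: 9 were under 0.5 on the log2 scale, 36 lay from 0.5 to 1, and 15 were at least 1. The called genes were mostly well expressed, with 53 of the 60 at a mean of at least 100. With quantile normalization 79 genes were called, 48 higher and 31 lower, beside 45 higher of 60 here. Leaving out 1 library at a time gave 21 to 150 calls, a fit with the atrial marker level as a covariate gave 16, and a fit without control vehicle libraries 1 and 3 gave 11. The sign of every called gene was the same in each of these fits. Of the called genes named here, Acsl1, Esr1, A1cf, Egflam, Parm1, Gabra3, Gpm6b, Scn7a, Enc1 and A930038C07Rik kept their call without control vehicle libraries 1 and 3, and the others lost it.

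Only 4 of the called genes had all 10 knockout libraries on one side of all 10 control libraries, and no other tested gene did (0.0295%). Besides Acsl1, Esr1 and A1cf, this was Parm1, which encodes a membrane glycoprotein. Parm1 was at 1382, 1577, 882, 1507 and 1714 in control vehicle and 1353, 1306, 1332, 1602 and 1436 in control rapamycin libraries. Knockout hearts given vehicle had 1795, 1886, 1940, 2030 and 1853, and those given rapamycin 1970, 2089, 1904, 2062 and 2177. The highest control value, 1714, lay under the lowest knockout value, 1795. The averaged log2 change was 0.50 (SE 0.09, adjusted p = 0.0191), with 0.46 under vehicle and 0.54 under rapamycin, and the gene was called in neither arm alone. With the atrial covariate its change was 0.51 and its adjusted p was 0.0580.

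**Figure D1:**
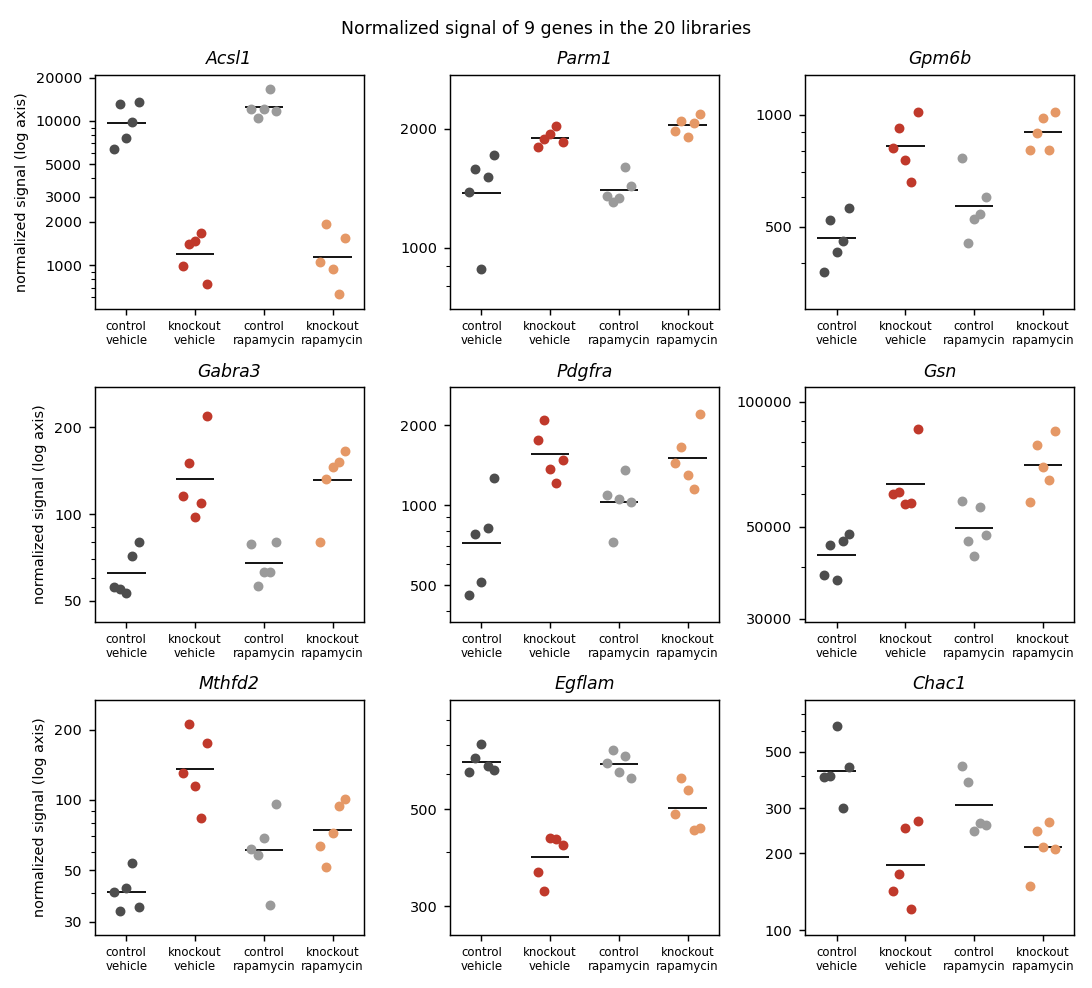
Normalized signal of 9 genes in each of the 20 libraries, on log axes that differ between panels. Points are libraries, 5 in each of the 4 groups, and black lines are geometric means. Acsl1 and Parm1 show no overlap between the genotypes, whereas the Chac1 groups overlap under rapamycin.

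Genes of fibroblasts and the extracellular matrix were among those that rose. Of 22 fibroblast markers tested, 3 were called higher, namely Pdgfra, Dcn and Gsn, and none lower (0.332% and 0.111% of all genes). The list had a median log2 change of 0.44 beside 0.02 for all genes, 21 of its 22 members had a positive change, and 14 had an unadjusted p under 0.05, all of them higher. Of all genes, 53.3% had a positive change and 10.4% were higher at an unadjusted p under 0.05. The median was 0.57 under vehicle and 0.25 under rapamycin. Summed over the list, the signal ran from 87650 to 110110 in control vehicle and from 116970 to 195100 in knockout vehicle libraries. It ran from 102200 to 123150 in control rapamycin and from 123010 to 196330 in knockout rapamycin libraries. These sums did not overlap in the vehicle arm and overlapped slightly in the rapamycin arm. Gsn and Dcn, with control means of 46496 and 17161, make up most of the sums, which therefore largely repeat those 2 genes. Of all genes taken singly, 2.32% did not overlap in the vehicle arm and 0.878% in the rapamycin arm. In bulk tissue, more fibroblasts and more RNA per fibroblast cannot be told apart.

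Pdgfra, the growth factor receptor that marks cardiac fibroblasts, had a lowest, median and highest value of 460, 925 and 1355 in control and of 1155, 1455 and 2201 in knockout libraries. Its log2 change was 0.83 (SE 0.17, adjusted p = 0.0391). Gsn, which encodes the actin-severing protein gelsolin, was at 37167, 46251 and 57830 in control and at 56583, 62854 and 86106 in knockouts (a log2 change of 0.53, SE 0.10, adjusted p = 0.0191). Dcn encodes decorin, a proteoglycan that binds collagen fibrils. It was at 14467, 17107 and 21622 in control and at 19424, 22157 and 31476 in knockouts (a log2 change of 0.44, SE 0.10, adjusted p = 0.0422). Gsn and Dcn changed by like amounts in both arms, at 0.57 and 0.50 for Gsn and 0.47 and 0.42 for Dcn, and neither was called in an arm alone. Gsn was called in all 20 fits that leave out 1 library, Pdgfra in 9 and Dcn in 6. With the atrial covariate the changes of Gsn, Pdgfra and Dcn were 0.51, 0.82 and 0.43, and none of the 3 was called (adjusted p = 0.0752 for Gsn). Tcf21, a transcription factor of the fibroblast lineage, had a change of 0.29 and Col1a1, the main chain of type I collagen, of 0.42, and neither passed the test (adjusted p = 0.194 and 0.459).

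Secreted matrix proteins and Wnt antagonists were among the largest changes. Of 33 tested members of the list of matricellular and activated fibroblast genes, 7 rose and none fell (0.332% and 0.111% of all genes). The 7 are Cilp, Itgbl1, Svep1, Myoc, Sfrp1, Sfrp2 and Frzb. The median of the list was 0.79, and 20 members were higher and 1 lower at an unadjusted p under 0.05, beside 10.4% and 8.73% of all genes. That list was drawn up with earlier results of these libraries known and is not independent evidence of its direction.

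Cilp, a matrix protein of cartilage and injured heart, rose most, from 177, 362 and 920 (lowest, median and highest) in control to 455, 1163 and 3157 in knockout libraries. The groups overlapped, and the log2 change was 1.64 (SE 0.36, adjusted p = 0.0434), with 2.19 under vehicle and 1.09 under rapamycin. Cilp was called in 6 of 20 fits that leave out 1 library. Itgbl1, an integrin-related secreted protein, went from 67.0, 128 and 249 to 170, 292 and 491 (log2 change 1.25, SE 0.22, adjusted p = 0.0140). It was called in all 20 of those fits. With the atrial covariate its change was 1.27, and it was not called (adjusted p = 0.0509). Svep1, a large adhesion protein, changed by 0.90 (SE 0.18, adjusted p = 0.0341) and Myoc, the secreted glycoprotein myocilin, by 1.06 (SE 0.19, adjusted p = 0.0150). Ephb2, a receptor of the ephrin family at a low level, changed by 1.31 (SE 0.28, adjusted p = 0.0415), from 1.96, 6.67 and 16.0 to 8.59, 18.4 and 31.8.

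Sfrp1, Sfrp2 and Frzb encode secreted frizzled-related proteins, which bind Wnt ligands outside the cell. Sfrp1 went from 306, 485 and 598 in control to 551, 745 and 1416 in knockouts (a log2 change of 0.82, SE 0.15, adjusted p = 0.0187). Sfrp2 changed by 1.12 (SE 0.23, adjusted p = 0.0391) and Frzb by 1.10 (SE 0.24, adjusted p = 0.0484). In each of these 3 genes the change was larger under vehicle (0.96, 1.30 and 1.46) than under rapamycin (0.67, 0.93 and 0.75), but the 95% intervals of the difference between arms included 0 (-0.92 to 0.33, -1.36 to 0.62 and -1.74 to 0.32). Sfrp1 was called in 20, Sfrp2 in 7 and Frzb in 6 of the 20 fits without 1 library. With the atrial covariate their changes were 0.84, 0.94 and 0.87, and none of the 3 was called (adjusted p = 0.0565 for Sfrp1).

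Antxr1, a collagen-binding receptor of stromal cells, changed by 0.88 (SE 0.18, adjusted p = 0.0391) without overlap inside either arm. Ecm2, Matn2 and Crispld2, which encode secreted or matrix proteins, rose by 0.56, 0.73 and 0.71. Kirrel, a cell adhesion protein, rose by 0.66 (adjusted p = 0.0472), with mean values of 277 in control and 425 in knockout libraries. It was called in 3 of the 20 fits without 1 library.

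The collagens had no call. None of its 22 tested members was called, but all 22 had a positive averaged change, with a median of 0.41, and 8 were higher at an unadjusted p under 0.05 (10.4% of all genes). The median was 0.97 under vehicle and 0.01 under rapamycin. Col8a1, a short-chain collagen of vessels and scars, came closest with a change of 0.88 (adjusted p = 0.0580), made up of 1.43 under vehicle and 0.34 under rapamycin. The list of TGF-beta ligands, receptors and Smads, the main pathway to matrix genes, had a median of 0.23 with 0 of 22 members called and 7 higher at an unadjusted p under 0.05 (10.4% of all genes). Without control vehicle libraries 1 and 3, the medians were 0.36 for fibroblast markers, 0.65 for the matricellular list, 0.28 for collagens and 0.15 for the TGF-beta list, and with the atrial marker level as a covariate they were 0.36, 0.63, 0.24 and 0.17.

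**Figure D2:**
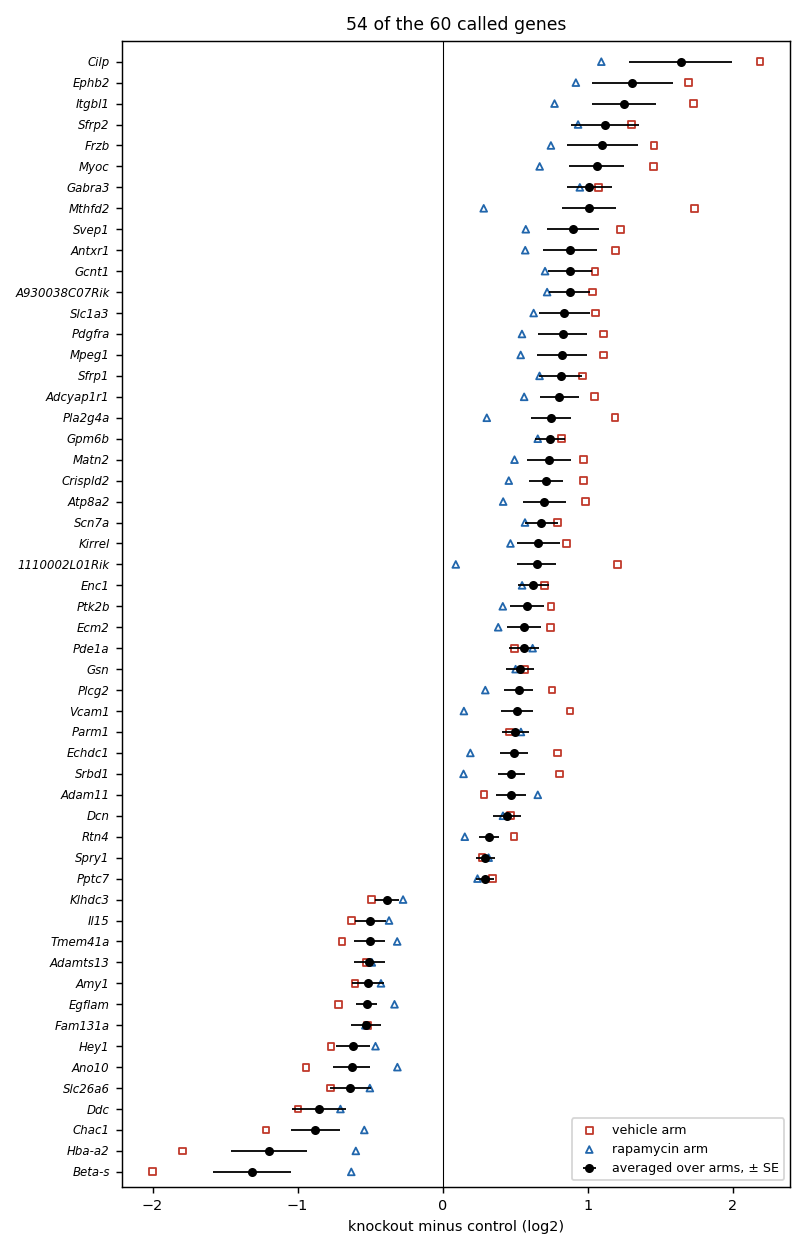
Log2 change between knockout and control hearts for 54 of the 60 called genes. Acsl1, Esr1, A1cf and 3 genes not reported here are left out. Black points are the change averaged over arms with its standard error, red squares the vehicle arm and blue triangles the rapamycin arm, and most squares lie farther from 0 than the triangles of the same gene.

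Gabra3, a subunit of the inhibitory GABA-A receptor, was at 53.4, 63.0 and 80.1 in control and at 79.9, 139 and 218 in knockout libraries. Its lowest knockout library, in the rapamycin arm, lay just under the highest control library. The log2 change was 1.01 (SE 0.16, adjusted p = 0.00574), with 1.07 under vehicle and 0.95 under rapamycin, and the gene was called in every fit. Gpm6b, a membrane proteolipid of neurons and glia, was at 379, 524 and 764 in control and at 661, 851 and 1017 in knockouts (a log2 change of 0.74, SE 0.10, adjusted p = 0.00160). It did not overlap between genotypes inside either arm and was also called in every fit. Scn7a, a sodium channel of glia and sensory neurons, changed by 0.68 (SE 0.11, adjusted p = 0.0103).

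Gpm6b and Scn7a were the 2 called genes among 15 tested nerve and glia transcripts (0.443% of all genes were called). The defining glial genes did not pass the test: Sox10, the glial transcription factor, had a change of -0.03, S100b of -0.08, and the myelin gene Mbp of 0.18. Th, the marker of sympathetic nerve fibres, was listed at 0 in 19 libraries. The summed signal of the list was 6201 to 6773 in control vehicle, 7089 to 8706 in knockout vehicle, 7186 to 8296 in control rapamycin and 7751 to 8418 in knockout rapamycin libraries. The part of nerve tissue in these calls was not tested. The receptor of the peptide PACAP, Adcyap1r1, rose by 0.81 (SE 0.14, adjusted p = 0.0103), and Pde1a, which degrades cyclic nucleotides, by 0.56 (SE 0.10, adjusted p = 0.0196). Slc1a3, a glutamate transporter, rose by 0.84 (adjusted p = 0.0391), Atp8a2, a lipid flippase, by 0.70 (adjusted p = 0.0391), and Enc1, an actin-binding protein of neurons, by 0.63 (adjusted p = 0.0103). Ptk2b, a kinase of the focal adhesion kinase family, rose by 0.58, Adam11, a membrane protein of the disintegrin family, by 0.47, and Rtn4, a protein of the endoplasmic reticulum also called Nogo, by 0.32. Gcnt1, an enzyme of O-glycan branching, rose by 0.88 (adjusted p = 0.0103), Echdc1, which breaks down ethylmalonyl-CoA, by 0.49, and Srbd1 by 0.47.

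Of immune and vessel genes, Vcam1, an adhesion molecule of activated endothelium, rose by 0.51 (SE 0.11, adjusted p = 0.0431), with 0.88 under vehicle and 0.15 under rapamycin. Its call held in 6 of the 20 fits without 1 library. It was the only called gene of 21 endothelial markers, whose median was 0.18 (0.443% of all genes were called). Mpeg1, a pore-forming protein of macrophages, rose by 0.82 (SE 0.17, adjusted p = 0.0391), and Plcg2, a phospholipase of immune receptor signalling, by 0.52 (adjusted p = 0.0246). None of the 20 listed macrophage markers was called, and their median was 0.11. Retnla, a marker of alternatively activated macrophages, had the smallest p among them, with a change of -1.0 (adjusted p = 0.0580).

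Among metabolic genes, the 23 tested PPAR targets had a median of 0.09. Oxct1, the enzyme by which heart muscle uses ketone bodies, had a change of 0.16, and Bdh1, which interconverts them, of 0.44 (adjusted p = 0.412 and 0.291). Of the enzymes of beta-oxidation, 0 of 18 were called, with a median of 0.15 and 9 higher at an unadjusted p under 0.05, beside 10.4% of all genes. The 10 genes of the carnitine shuttle had a median of 0.12 and no call, with Cpt1b, the muscle form of its gatekeeper, at 0.09 (95% interval -0.07 to 0.24). Ppara, a nuclear receptor for fatty acids, had a change of 0.37 (adjusted p = 0.252), its coactivator Ppargc1a of 0.48 (0.249), and Pdk4, which blocks pyruvate oxidation, of 0.28 (0.660). Without control vehicle libraries 1 and 3 these changes were 0.19, 0.31 and -0.0065.

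Genes of glucose use were not called either. Slc2a1 and Slc2a4, the glucose transporters of heart, had changes of -0.20 (adjusted p = 0.311) and -0.26 (0.242), and Hk2, which phosphorylates glucose, of 0.18 (0.479). Without control vehicle libraries 1 and 3 the changes of Slc2a4 and Hk2 were -0.14 and 0.0080. The list of glucose transport and glycolysis had a median of -0.14 over 26 genes, which was -0.04 without control vehicle libraries 1 and 3. Pdk3, a kinase of pyruvate dehydrogenase, came closest to the threshold, with a change of 0.48 (adjusted p = 0.0735). Pla2g4a, the phospholipase that releases arachidonic acid from membranes, rose from 49.3, 60.3 and 88.1 to 55.0, 104 and 179 (log2 change 0.75, SE 0.14, adjusted p = 0.0191), with 1.19 under vehicle and 0.30 under rapamycin. It was called in all 20 fits without 1 library. It was not called with the atrial covariate (log2 change 0.66, adjusted p = 0.0818) or without control vehicle libraries 1 and 3 (log2 change 0.75, adjusted p = 0.0671).

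Of the stress genes controlled by the transcription factor ATF4, 1 rose and 1 fell. Mthfd2, an enzyme of mitochondrial folate metabolism, rose from 33.4, 47.7 and 96.1 to 51.6, 97.8 and 212 (log2 change 1.01, SE 0.19, adjusted p = 0.0196). Chac1, which breaks down glutathione, fell. It was at 397, 400, 631, 301 and 435 in control vehicle and at 142, 165, 250, 121 and 266 in knockout vehicle libraries. In the rapamycin arm it was at 437, 381, 245, 263 and 258 in control and at 149, 244, 211, 265 and 208 in knockout libraries. The vehicle groups did not overlap, and the rapamycin groups did. The log2 change of Chac1 was -0.88 (SE 0.17, adjusted p = 0.0239). These were the only called genes of 24 ATF4 targets, where 0.332% of all genes were called higher and 0.111% lower. The median of the list was 0.07, and Atf4 itself had a change of 0.22 (adjusted p = 0.386). Ddit3 and Asns, other targets of ATF4, had changes of 0.10 and 0.30 without passing the test.

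The promoters of both genes are shown because both are known targets of ATF4 and moved apart. Each run covers 250 bases before to 50 bases after the start site, 300 bases in all, in RefSeq on build GRCm38.p6, at chr2:119350992-119351291 on the plus strand for Chac1 and chr6:83317555-83317854 on the minus strand for Mthfd2. Capitals mark a match to TGATGNAA, the core of the amino acid response element, searched on both strands with no other motif searched. The Chac1 promoter held 1 match, TTGCATCA, which reads the motif on the opposite strand and begins 193 bases before the start site. The Mthfd2 window held none. Of 32851 mouse promoters of the same length, 1304 (3.97%) held at least 1 match, and a match describes the letters only.
Chac1: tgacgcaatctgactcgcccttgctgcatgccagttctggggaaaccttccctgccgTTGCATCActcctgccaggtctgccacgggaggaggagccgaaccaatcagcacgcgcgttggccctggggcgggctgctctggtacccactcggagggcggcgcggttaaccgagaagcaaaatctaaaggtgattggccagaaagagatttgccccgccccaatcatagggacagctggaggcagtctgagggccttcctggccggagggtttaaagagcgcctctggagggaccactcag
Mthfd2: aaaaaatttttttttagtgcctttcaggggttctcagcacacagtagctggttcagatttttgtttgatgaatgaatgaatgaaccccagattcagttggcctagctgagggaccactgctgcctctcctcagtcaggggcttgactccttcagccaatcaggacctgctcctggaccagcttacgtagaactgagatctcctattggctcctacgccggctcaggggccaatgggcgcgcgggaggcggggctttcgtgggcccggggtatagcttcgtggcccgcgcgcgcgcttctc

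The genes that fell were fewer, at 15. Egflam encodes pikachurin, a ligand of dystroglycan at the cell surface. It was at 607, 653, 703, 626 and 614 in control vehicle and at 359, 326, 429, 428 and 413 in knockout vehicle libraries. In the rapamycin arm it was at 637, 682, 607, 661 and 587 in control and at 488, 590, 553, 448 and 453 in knockout libraries. A single knockout library, at 590, passed the lowest control library, at 587. The log2 change was -0.52 (SE 0.07, adjusted p = 0.00160), with -0.72 under vehicle and -0.33 under rapamycin, and the call held in every fit.

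Hey1, a transcriptional repressor downstream of Notch, had a log2 change of -0.62 (SE 0.12, adjusted p = 0.0239), from 316, 426 and 633 to 216, 275 and 349. Ano10, of the anoctamin membrane proteins, fell by 0.63 (SE 0.13, adjusted p = 0.0352), and Fam131a by 0.53 (SE 0.10, adjusted p = 0.0261) with almost the same change in each arm. Il15, a cytokine made by muscle, fell by 0.50 (SE 0.11, adjusted p = 0.0434), from 887, 1106 and 1703 to 636, 811 and 920. Ddc, which makes dopamine and serotonin, changed by -0.85 (adjusted p = 0.0469), the anion exchanger Slc26a6 by -0.64 (adjusted p = 0.0484), the protease Adamts13 by -0.51 (adjusted p = 0.0391) and the amylase gene Amy1 by -0.51 (adjusted p = 0.0422). Klhdc3 and Tmem41a fell by 0.38 and 0.50. Hey1 was called in 17, Fam131a in 13 and Ano10 in 11 of the 20 fits without 1 library. Klhdc3 and Tmem41a were called in 6 of them, Il15 and Amy1 in 4, and Ddc, Slc26a6 and Adamts13 in 3.

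A pair of red cell transcripts fell. Beta-s and Hba-a2, the haemoglobin chains, had changes of -1.31 (SE 0.27, adjusted p = 0.0391) and -1.20 (SE 0.26, adjusted p = 0.0431). Beta-s was at 61652, 32138, 70934, 29250 and 25898 in control vehicle and at 8689, 6142, 8306, 11841 and 19869 in knockout vehicle libraries. Under rapamycin the controls had 21026, 44950, 16561, 44835 and 31174, and the knockouts 17348, 15969, 13180, 45407 and 14862. The vehicle groups did not overlap, and control vehicle libraries 1 and 3 were the highest of all. Without that pair the change was -1.08 (adjusted p = 0.151). Of 9 erythroid transcripts tested, 2 were called, both lower (0.111% of all genes), and the median change was -1.0. At an unadjusted p under 0.05, 7 were lower and 1, Fech, higher (8.73% and 10.4% of all genes). The list's summed signal was 65329 to 159540 in control vehicle, 18684 to 50929 in knockout vehicle, 43355 to 105800 in control rapamycin and 34192 to 109330 in knockout rapamycin libraries. Blood left in the tissue was not measured separately, and reads may be split among the closely related haemoglobin copies.

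**Figure D3:**
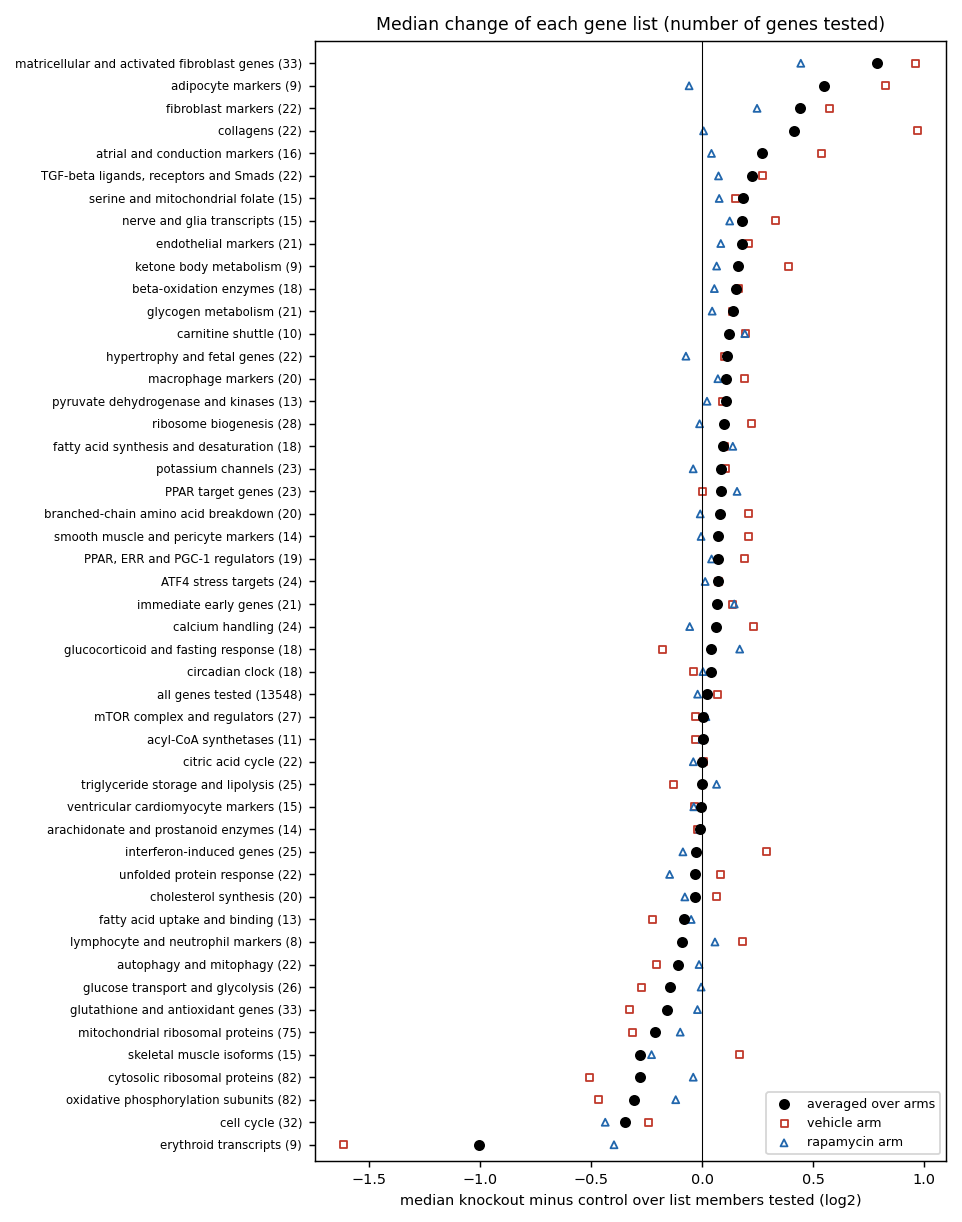
Median log2 change between knockout and control hearts over the tested genes of each list, with the number tested in brackets. Black points are averaged over arms, red squares the vehicle arm and blue triangles the rapamycin arm, and the row of all 13548 genes lies at 0.02.

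Several large lists of housekeeping genes had medians below 0 and no call. Of 82 subunits of oxidative phosphorylation, 77 had a negative change, the median was -0.30, and 33 were lower at an unadjusted p under 0.05. Of all genes, 46.7% had a negative change and 8.73% were lower at that threshold. Cytosolic ribosomal proteins had a median of -0.28 over 82 genes and mitochondrial ribosomal proteins of -0.21 over 75. In the order given, the medians of these lists were -0.47, -0.51 and -0.31 under vehicle and -0.12, -0.04 and -0.10 under rapamycin. Without control vehicle libraries 1 and 3, which were low in long transcripts relative to short ones, the medians were -0.14, -0.10 and -0.09. Cell cycle genes had a median of -0.35 over 32 genes, with 12 lower and 1 higher at an unadjusted p under 0.05, and here the median was -0.50 without them. The cell cycle median was not stable to the filter. With only genes at a mean of at least 100 kept, it moved by at least 0.29, the residual SD of the list's mean level. Ccna2, a cyclin of dividing cells, had a change of -0.98 (adjusted p = 0.0580) with nearly equal shares from the arms (-0.89 and -1.07).

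Markers of hypertrophy and of the fetal program, which are central to the question of the study, did not pass the test. Myh7, the slow myosin chain that rises in hypertrophy, had a change of 0.58 (95% interval 0.14 to 1.01, adjusted p = 0.209), with 1.10 under vehicle and 0.06 under rapamycin. Control vehicle libraries 1 and 3 had the lowest Myh7 values, 7235 and 6265, and the other controls lay between 17422 and 28119. Without that pair the change was 0.27 (adjusted p = 0.660). Nppa and Nppb, the natriuretic peptides, had changes of 1.59 (adjusted p = 0.154) and 0.78 (0.354), and Acta1, the skeletal actin, of 0.36 (0.627). Without that pair the changes of Nppb and Acta1 were 1.25 and 0.61. Nppa is also an atrial transcript, and its change was 0.78 with the atrial marker level as a covariate. The ventricular cardiomyocyte markers had a median of -0.01 over 15 genes.

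The arms were compared gene by gene, since an average can hide a difference between them. All 60 called genes had the same sign under vehicle and under rapamycin, beside 61% of all tested genes. The change was larger under vehicle in 53 and larger under rapamycin in 7, with a median size of 0.97 and 0.54. The arms enter the average, so this describes the called genes and is no separate test of them. The genes called in the vehicle arm were also looked up in the rapamycin arm, which shares no library with it. Both arms share 1 estimate of spread, and the genes do not vary independently of each other. All 33 of them (0.244% of genes) had the same sign under rapamycin, with a median change of 0.54 in that direction beside 1.05 under vehicle, and 16 had an unadjusted p under 0.05 there, beside 2.97% of all genes. The rapamycin arm alone gave 3 calls (0.0221%), Acsl1, Esr1 and A1cf, which are also among the 33. Choosing genes by their vehicle p favours large vehicle changes, so 1.05 and 0.54 are not like measures. The number of genes called in the vehicle arm also depended strongly on single libraries.

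**Figure D4:**
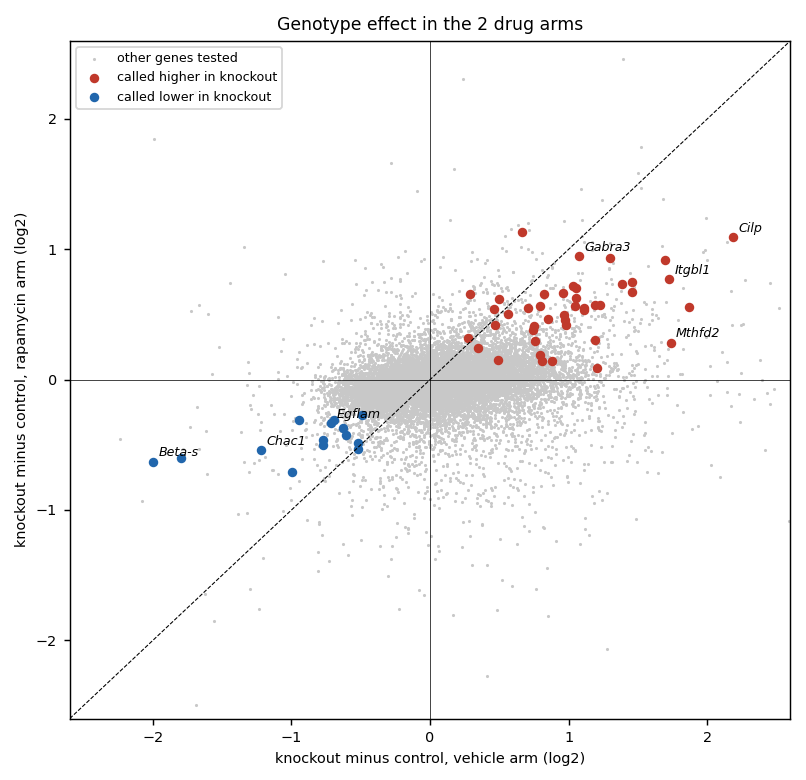
Log2 change between knockout and control hearts under vehicle (x axis) and under rapamycin (y axis) for each tested gene. Red points are genes called higher and blue points genes called lower for the average, grey points are other genes, and the dashed line marks equal change. Acsl1, Esr1 and A1cf lie outside the axes, and 53 of the 60 called genes changed more under vehicle.

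Averaging added 32 genes that passed in neither arm alone, 23 higher and 9 lower. They include Parm1, Gsn, Dcn, Pdgfra, Cilp, the 3 Wnt antagonists, Hey1, Fam131a and Il15. The average also lost 5 genes of the vehicle arm, Adrbk2, Col8a1, D630003M21Rik, Dsel and Rbms3, whose adjusted p lay between 0.0580 and 0.0872 and whose unadjusted interaction p lay between 0.00490 and 0.0167. The median standard error over genes was 0.135 for the average and 0.190 for the vehicle arm. Both arms passed an unadjusted p of 0.05 in the same direction for 45 of the 60 genes and for 134 genes in all (0.989%). In the vehicle arm the 5 knockout and 5 control libraries did not overlap for 46 of the 60 (2.32% of all genes) and in the rapamycin arm for 14 (0.878%). Of 10 genes without overlap inside either arm (0.0738%), 9 were called: Acsl1, Esr1, A1cf, Parm1, Antxr1, Dcn, Gpm6b, Pptc7 and Spry1. Pptc7, a phosphatase of mitochondria, and Spry1, an inhibitor of growth factor signalling, changed by only 0.29 each.

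No gene passed an adjusted p of 0.05 for the difference between the arms (limma interaction, 0 of 13548, smallest adjusted p = 0.523), and 1124 genes (8.3%) had an unadjusted p under 0.05. Of the 60 called genes, 15 had an unadjusted interaction p under 0.05. The smallest was that of 1110002L01Rik, an unnamed transcript that changed by 1.20 under vehicle and 0.09 under rapamycin, a difference of -1.11 with a 95% interval of -1.67 to -0.55. Mthfd2 changed by 1.73 and 0.28, a difference of -1.45 with a 95% interval of -2.25 to -0.65. For Parm1, Gsn, Dcn and Fam131a the differences between arms were 0.08, -0.06, -0.05 and -0.01, with intervals of -0.31 to 0.47, -0.48 to 0.36, -0.46 to 0.35 and -0.45 to 0.42. The median standard error of a difference between arms was 0.269, beside 0.135 for the averaged change.

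The labels assign the libraries to 4 pools, which match the lane codes in the file headers, each with at least 1 library of every group. Within each of the 4 pools, all 60 called genes had the sign of the averaged change (39.4% of all genes did), with a median size of 0.72, 0.74, 0.80 and 0.55. The pools make up the average that chose these genes, so this describes them and is no separate test. Egflam changed by -0.44, -0.73, -0.44 and -0.45 in the pools and Gpm6b by 0.59, 0.76, 0.96 and 0.41. Itgbl1 varied more, with 1.16, 1.47, 1.76 and 0.23.

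The last called gene was Spry1 (adjusted p = 0.0494), and 83 further genes had an adjusted p between 0.05 and 0.1, 50 higher and 33 lower. Near the threshold lay Apoe, a lipid carrier, with a change of 0.56 (adjusted p = 0.0503), Serping1, an inhibitor of complement, with 0.50 (0.0523), and Nox4, a source of hydrogen peroxide, with 1.61 (0.0550). The genes named here but not by the naming rule were chosen after their values were seen. They are Adam11, Adcyap1r1, Atp8a2, Crispld2, Echdc1, Ecm2, Enc1, Gcnt1, Il15, Kirrel, Klhdc3, Matn2, Mpeg1, Pde1a, Plcg2, Pptc7, Ptk2b, Rtn4, Spry1, Srbd1, Tmem41a and 1110002L01Rik of the called genes, and Apoe, Serping1, Nox4 and the list members without a call other than those with the smallest p. A930038C07Rik, an uncharacterised transcript that rose by 0.88 (adjusted p = 0.00901), is added because it was called in every fit that tested it, as were Acsl1, Esr1, A1cf, Egflam, Gabra3 and Gpm6b.

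**Figure D5:**
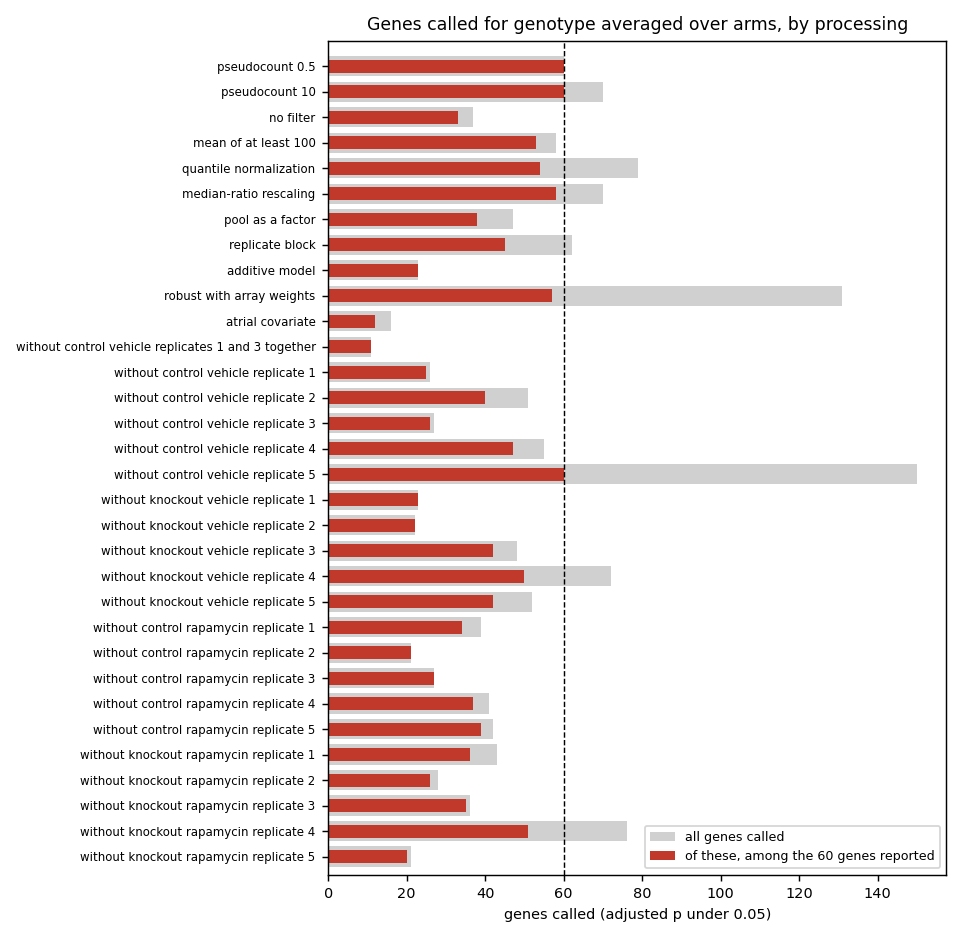
Number of genes called for genotype averaged over arms in each alternative and with each library left out. Grey bars are all genes called, red bars those among the 60 reported, and the dashed line marks 60. The bars run from 11 to 150, and all 11 genes of the shortest bar are among the 60.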

How the data were processed

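Poly(A) RNA from heart ventricles was made into TruSeq libraries, per the labels' protocols. The file holds 1 deposited signal value per gene and library, scaled by the authors to an upper quartile between 996.6 and 1000 per library. Build mm9, Picard 1.64, SAMtools and RSEM are named, per the submitters' processing notes, and the aligner is not given in the sources used here. Signal values are not counts. Between 87.2% and 89.0% of low values were whole multiples of 1 read within 0.05 reads, which was too few to recover reads, so the implied depth is approximate.

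All 20 libraries entered 1 limma 3.58.1 model in R 4.3.3 with a mean per group and an intensity trend, fitted to log2(value + 1) for 13548 of 21705 genes. The pseudocount of 1 means that changes of low genes are understated. Benjamini-Hochberg adjustment ran over all tested genes, with a threshold of 0.05, and the fit was tested on simulated data with known changes. The 95% intervals use the residual degrees of freedom. The limma p-values set each change against the spread between libraries of the same group, moderated over the genes tested. That spread is the one between these samples. Single measures used exact two-sided permutation of genotype within arms. Gene lists were counted and not tested. Of 21705 genes, 21562 had an identifier in RefSeq (GRCm38.p6), and promoters came from RefSeq.

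The genes named are Acsl1, Esr1 and A1cf, the 12 called genes in each direction with the largest change and a mean of at least 100, the 5 with a mean of 10 to 100, up to 4 called members of each list or the 1 with the smallest p, and fixed heart genes. Some genes that this rule names are not reported here. Members and lists were chosen with earlier results of these data known. The alternatives were other pseudocounts, filters and scalings, a pool term, a replicate block, an additive model, robust weights, an atrial covariate, and leaving out libraries.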

Additional observations from a re-analysis of the deposited data

Results flagged for a closer look

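Among the called genes, 238 groups of 5 libraries were checked for a library far from the other 4 on the log2 scale, and 11 had one, where chance alone gives about 1 in 20 (11.9). Knockout vehicle library 5 was high for Gsn (86106, others 56583 to 60749) and Dcn (31476, others 19424 to 21091), both fibroblast markers. Knockout rapamycin library 4 was high for Beta-s (45407, others 13180 to 17348) and Hba-a2 (49830, others 13969 to 19315), both haemoglobin chains. Control vehicle library 1 was high for Adam11 (375, others 251 to 266) and low for Pde1a (114, others 158 to 179). Control vehicle library 3 was high for Slc26a6 (684, others 357 to 417), and control vehicle library 5 for Ddc (226, others 155 to 169). Knockout rapamycin library 1 was low for Slc1a3 (41.3, others 68.7 to 82.5). Control rapamycin library 4 was high for Rtn4 (2363, others 2026 to 2109) and control rapamycin library 2 for Spry1 (978, others 864 to 883).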

How the results depend on the processing

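Against 60 genes called for the average (45 higher and 15 lower), 37 were called with no filter (7 lower), 23 with an additive model (17 higher and 6 lower), 131 with robust fitting and array weights (83 and 48), 16 with the atrial covariate (11 and 5) and 11 without control vehicle replicates 1 and 3 (9 and 2). Quantile normalization gave 31 lower calls. The other alternatives gave 47 to 70. Leaving out 1 library gave 21 to 150 calls (17 to 110 higher, 2 to 40 lower). The count moved by over 1.5 times without control vehicle 1 (26), 3 (27) or 5 (150), knockout vehicle 1 (23) or 2 (22), control rapamycin 1 (39), 2 (21) or 3 (27), and knockout rapamycin 2 (28), 3 (36) or 5 (21). The vehicle arm gave 33 calls, but 56 with a pool term, 12 with robust weights, 7 with the atrial covariate, 4 without control vehicle replicates 1 and 3, and 8 to 3089 with 1 library left out (3089 without control vehicle 5, 2565 without knockout vehicle 5, 343 without control vehicle 4). The rapamycin arm gave 3 calls, 14 with robust weights and 3 to 4 with 1 library left out, and the interaction 0 in each fit. The cause of these moves was not tested. No called gene changed sign in any fit. Of uncalled genes, Pdk4 turned to -0.0065, Ucp3 to -0.15 and Acsl4 to -0.023 without control vehicle replicates 1 and 3, and Ucp3 also to -0.085 with robust weights and -0.018 without control vehicle 1 (range -0.018 to 0.32 with 1 library left out). Acsl5 turned to -0.030 with quantile normalization, -0.018 with median-ratio rescaling, -0.079 with the atrial covariate and below 0 in 9 fits without 1 library (range -0.046 to 0.050). The list of lymphocyte and neutrophil markers had no gene left at a mean of at least 100, so that filter gave it no value. Same-numbered libraries did not deviate together on average (mean r = 0.00674 over 30 pairs, from -0.515 to 0.427, 10 of them over 0.1). That mean was near the one of other numbers (-0.000256), but r varied too widely to settle whether the numbers pair the samples. A replicate block gave 62 calls, 45 of them shared. Depth limits low genes such as A1cf and Ephb2.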
